A study of Homo sapiens with 36 samples.

Results

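The 57 genes described here code for the WNT signalling system as it reaches from the ligand to the nucleus, and were taken from the 28516 genes of the count table by their symbols: 19 WNT ligands, 10 Frizzled receptors, the co-receptors LRP5 and LRP6, 9 secreted inhibitors (DKK, SFRP and WIF1), 8 genes of the R-spondin branch (RSPO1 to RSPO4, LGR4, LGR5, RNF43 and ZNRF3), 5 genes of the cytoplasm (CTNNB1, AXIN1, AXIN2, NKD1 and NKD2) and the 4 TCF/LEF factors. Poly-A RNA-seq was performed on human neural stem cells (hNSC), a commercial line that grows as undifferentiated progenitors, harvested 48 h after lentiviral infection. The libraries fell into 6 groups of 6. Activation groups (MEIS1-OE, MEIS2-OE) had the gene switched on at its own locus by CRISPR activation, for which the cells received a guide RNA, dCas9 fused to VP64 and the MS2-p65-HSF1 helper from 3 separate viruses. In MEIS1-KO and MEIS2-KO, Cas9 and a 1:1 mixture of viruses with 2 guides against the gene were delivered with a single vector type, so these were mixed cell populations and not clones. Matching vectors carrying a non-targeting guide were used for ctrl-OE and ctrl-KO, and the activation and knockout arms therefore differ in the vectors they received as well as in the direction of the change. MEIS1 and MEIS2 are paralogous homeodomain transcription factors.

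WNT proteins are secreted lipid-modified ligands that bind a Frizzled receptor together with LRP5 or LRP6. In the canonical branch this halts the degradation of beta-catenin (CTNNB1), which is held low by a complex built on AXIN1 and AXIN2, and beta-catenin then enters the nucleus and switches TCF/LEF factors from repression to activation. SFRP and WIF1 proteins bind the ligands, and some DKK proteins, such as DKK1, block the co-receptors. R-spondins, through LGR receptors, remove the ligases RNF43 and ZNRF3 that otherwise clear Frizzled from the membrane. In the embryonic brain the pathway patterns the dorsal midline and sets the balance between division and differentiation of neural progenitors.

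The sequences upstream of 3 of the genes that moved and of 1 that did not are shown first, because MEIS proteins read a short DNA word. MEIS factors bind the core TGACAG, and with a PBX partner the joined form that begins TGATTGA. TCF/LEF factors bind CTTTGA. These words were searched on either strand of the 250 bases upstream of the annotated starts in RefSeq (GRCh38.p14), where 39 of the 57 genes had an entry with 46 start windows in all. Capitals mark the matches, each window is written 5′ to 3′ on the strand of the gene, and the positions are chr1:37634893-37635142 (minus strand) for RSPO1, chr4:108166302-108166551 (minus) for LEF1, chr11:27472791-27473040 (minus) for LGR4 and chr17:46818693-46818942 (minus) for WNT3.
RSPO1: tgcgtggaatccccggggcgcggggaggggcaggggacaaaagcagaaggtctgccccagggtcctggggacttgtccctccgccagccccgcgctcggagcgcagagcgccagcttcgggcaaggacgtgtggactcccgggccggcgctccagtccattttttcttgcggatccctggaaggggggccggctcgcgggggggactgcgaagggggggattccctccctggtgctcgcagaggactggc
LEF1: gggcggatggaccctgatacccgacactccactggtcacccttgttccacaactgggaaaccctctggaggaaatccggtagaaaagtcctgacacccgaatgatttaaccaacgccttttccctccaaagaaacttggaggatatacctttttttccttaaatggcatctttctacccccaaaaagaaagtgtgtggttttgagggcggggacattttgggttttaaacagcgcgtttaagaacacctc
LGR4: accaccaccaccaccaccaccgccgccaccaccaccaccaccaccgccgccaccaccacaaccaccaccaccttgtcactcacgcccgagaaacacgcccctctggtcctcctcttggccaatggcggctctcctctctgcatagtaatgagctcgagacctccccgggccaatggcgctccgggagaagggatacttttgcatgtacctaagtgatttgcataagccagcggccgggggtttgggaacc
WNT3: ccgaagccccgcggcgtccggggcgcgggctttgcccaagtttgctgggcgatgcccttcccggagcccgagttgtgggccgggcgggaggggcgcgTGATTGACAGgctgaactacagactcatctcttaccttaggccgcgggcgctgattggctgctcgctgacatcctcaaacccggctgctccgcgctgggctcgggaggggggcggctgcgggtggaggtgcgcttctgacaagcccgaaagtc
The windows of RSPO1, LEF1 and LGR4, whose RNA changed as given below, held none of the 3 words, and neither did those of SFRP2 and FZD1. The WNT3 window held TGATTGA starting 153 bases and TGACAG starting 149 bases before the start, overlapping by 3 bases to give the complete joined PBX-MEIS word, and WNT3 RNA passed the test in none of the 4 comparisons of a MEIS gene with its control. Among all 35116 windows of this length, TGACAG was present in 13.034%, TGATTGA in 1.788% and CTTTGA in 11.211%. Among the members TGACAG was also present upstream of WNT16, TGATTGA upstream of RNF43 and TCF7L2, and CTTTGA upstream of DKK1. Of these, RNF43 passed in MEIS2-KO and TCF7L2 in the difference between MEIS1 activation and knockout, as given below. DKK2 and WNT10B, which also changed, had no entry. The windows shown are therefore not a comparison of changed with unchanged genes. A match is a description of the letters only, since a 250-base window leaves out most regulatory DNA.

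The knockout guides were also set against the members, because a cut in a member would be read as an effect of the MEIS gene. Among the sites the study predicted for its 4 knockout guides, 2 intronic sites lay in members, in AXIN2 (GRCh37 chr17:63545248-63545270, plus strand) for guide MEIS2-g5 and in NKD2 (GRCh37 chr5:1028728-1028750, minus strand) for guide MEIS2-g2. Capitals in the sites mark the mismatched bases and the last 3 bases, which are the PAM.
MEIS2-g5 guide: gttctgatgtcaggatacca
AXIN2 site: gttctgCAgAcaggataccTGGG
MEIS2-g2 guide: cccactcagcaggcacccca
NKD2 site: ccAGGtcagcaggGaccccaCGG
Counted from 1 at the 5′ end of the guide, with the base of the guide first, the AXIN2 site differs by A7C, T8A, T10A and A20T and the NKD2 site by C3A, A4G, C5G and C14G. AXIN2 and NKD2 did not pass the test in MEIS2-KO, with log2 fold changes of -0.03 (95% interval -0.24 to 0.18) and 0.27 (-0.14 to 0.69).

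Depth was between 15429985 and 22940493 counts per library, with a median of 20324720. MEIS1 rose from a mean of 17.8 CPM (counts scaled to the size of the library) in ctrl-OE to 310.2 in MEIS1-OE and fell from 25.7 in ctrl-KO to 8.96 in MEIS1-KO, and MEIS2 rose from 22.6 to 824 in MEIS2-OE and fell from 25.8 to 12.1 in MEIS2-KO, with no overlap of the groups. Of 8 neural stem cell markers 7 were at 1 CPM or more in each of the 6 groups (SOX2 at 86.3 to 322 CPM across libraries) and HES5 was low, with a highest value of 1.64 CPM. The pluripotency gene LIN28A was high, at 248 to 535 CPM across libraries, whereas POU5F1 and NANOG were below 0.4 CPM in each. Of the roof plate and cortical hem markers, the tissue that secretes WNT ligands in the embryonic forebrain, LMX1A was at 0 counts in all groups, TTR was below 0.1 CPM, GDF7 was at 0 to 0.411 CPM across libraries and MSX1, which other dorsal tissues also express, at 0.338 to 3.29. Library 6 of ctrl-OE was the highest of its group for 18 of the 36 members that reached 1 CPM in a group. Values without it are given below where it changed a call of a MEIS group against ctrl-OE. They are also given for several members in which it was far from its group.

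In the test of all 19689 genes with at least 10 counts in sum (edgeR quasi-likelihood, Benjamini-Hochberg adjustment over all of them, called here at an adjusted p under 0.05), 53 of the 57 members were tested. WNT10A, WNT3A, DKK4 and SFRP5 had fewer than 10 counts over the 36 libraries. In MEIS1-OE against ctrl-OE 8 members passed, 5 higher and 3 lower, which is 15.1% of those tested against 9.10% of all genes. In MEIS2-OE against ctrl-OE 2 passed, 1 in each direction, which is 3.77% against 1.35%. In MEIS1-KO against ctrl-KO 2 passed, 1 in each direction, again 3.77% against 1.46%. In MEIS2-KO against ctrl-KO 8 passed, 3 higher and 5 lower, which is 15.1% against 10.0%. With the additional requirement of an absolute log2 fold change above 0.58, 3, 1, 1 and 2 of the 53 tested members passed in these 4 comparisons. Of all 19689 genes, 560, 98, 57 and 312 did (2.84%, 0.498%, 0.290% and 1.58%). The median log2 fold change of the tested members was -0.06, -0.05, 0.00 and 0.00, and that of all tested genes was -0.0013, -0.0093, 0.0033 and -0.011. The comparisons of a MEIS gene with its control share that control in pairs, so MEIS1-OE and MEIS2-OE are not independent of each other, nor are MEIS1-KO and MEIS2-KO. Values below are CPM after TMM scaling unless a unit is given, log2 fold changes carry their standard error, and adjusted p is that of the edgeR test.

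**Figure D1:**
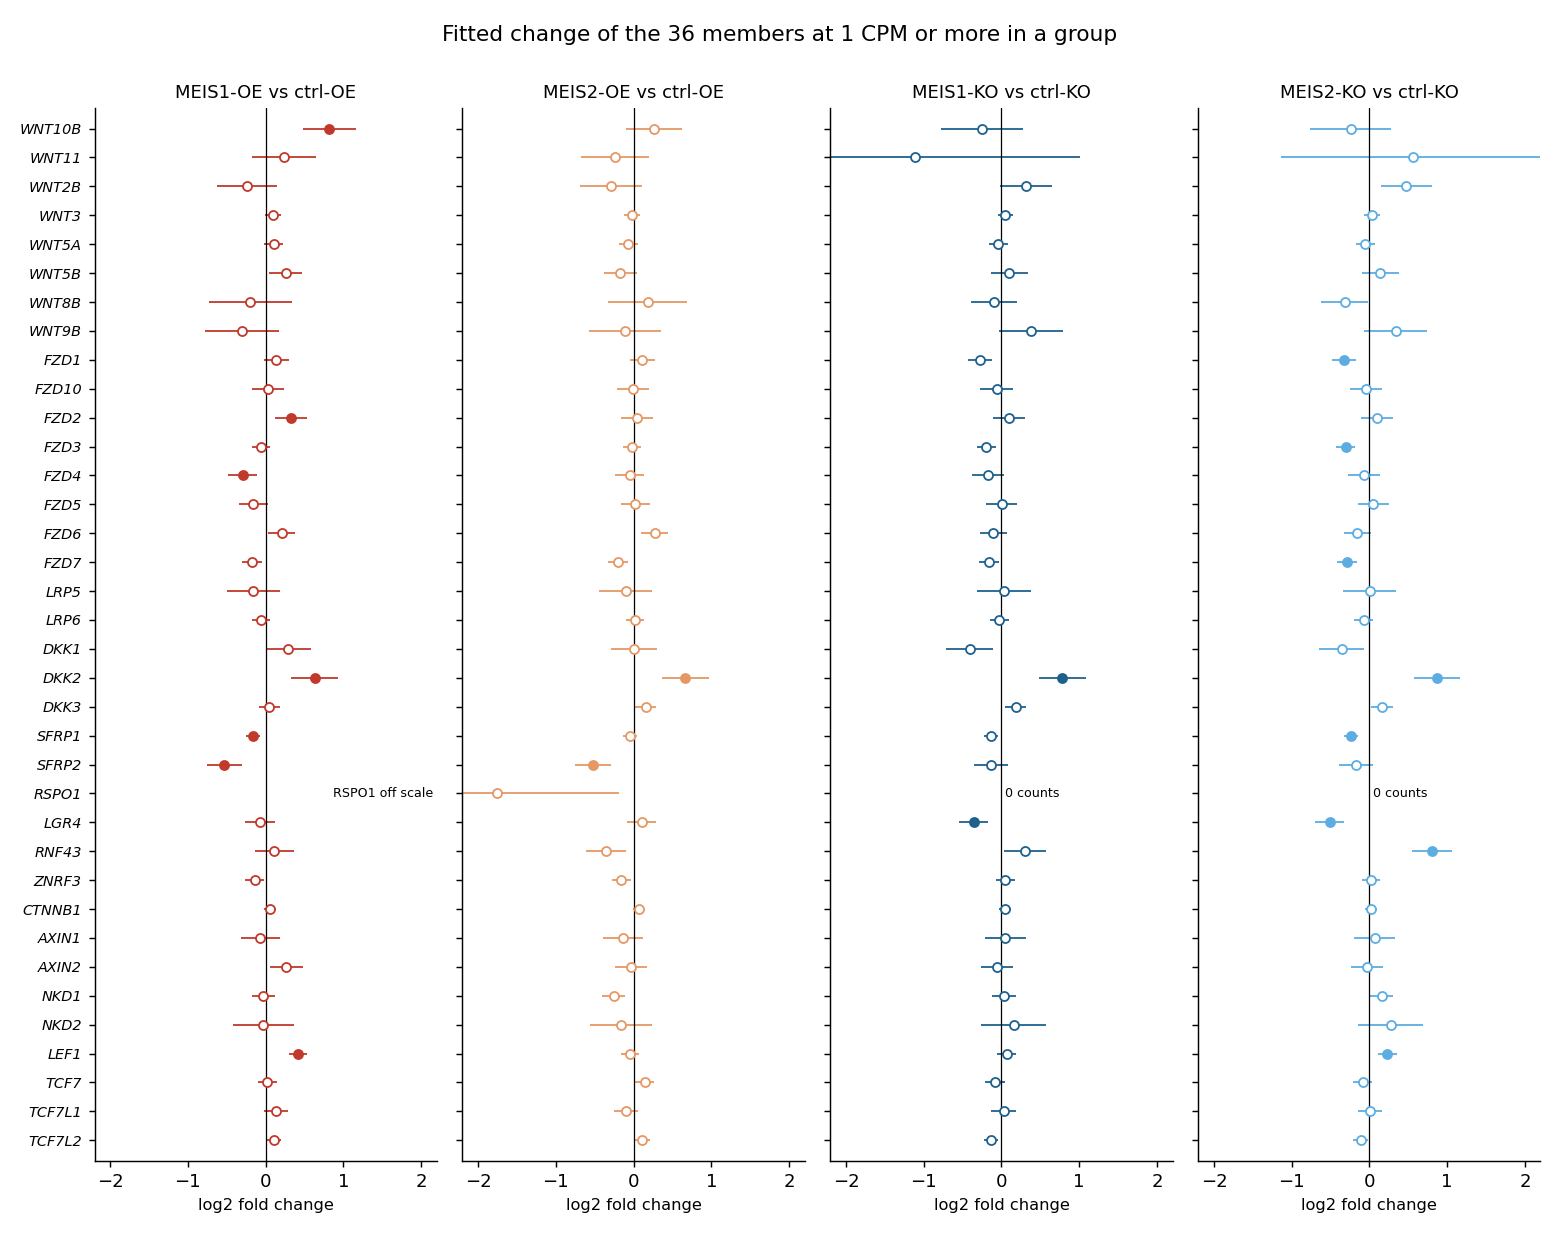
Log2 fold change (x axis) of the 36 members that reached 1 CPM in at least 1 group (y axis) in each MEIS group against its control. Points are edgeR estimates, bars are 95% intervals, and filled points have an adjusted p under 0.05. DKK2 is filled and above 0 in all 4 panels, and RSPO1 in MEIS1-OE lies beyond the axis at 3.95.

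Most of the ligand message of these cells was WNT3 and WNT5A. WNT3, a ligand of the canonical branch, and WNT5A, the main ligand of the non-canonical branch, made up 45.5% ± 2.6 and 35.4% ± 2.2 (SD, n = 6) of the summed ligand CPM per kilobase of exon in ctrl-OE, and 53.3% ± 1.5 and 33.0% ± 1.9 in ctrl-KO. Per kilobase WNT3 was at 7.74 and WNT5A at 5.995 in ctrl-OE, and at 10.5 and 6.48 in ctrl-KO. WNT5B, a close relative of WNT5A, followed with 8.99% ± 0.61 in ctrl-OE and 4.84% ± 0.69 in ctrl-KO. WNT10B, WNT11, WNT2B, WNT8B and WNT9B reached 1 CPM in at least 1 group and the other 11 ligands did not: WNT1, WNT10A, WNT16, WNT2, WNT3A, WNT4, WNT6, WNT7A, WNT7B, WNT8A and WNT9A.

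**Figure D2:**
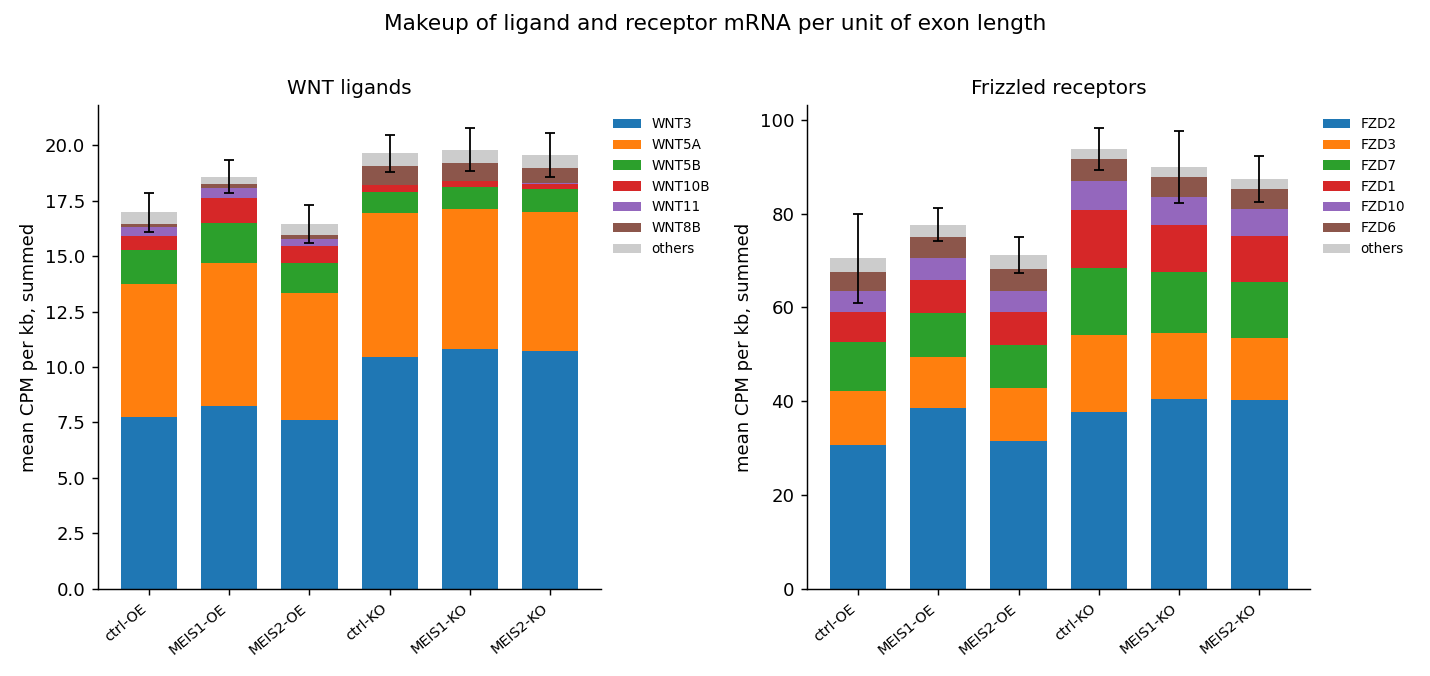
Summed level of the WNT ligands (left) and the Frizzled receptors (right) in the 6 groups, in mean CPM per kilobase of exon, stacked by gene. Error bars are the SD of the sum over 6 libraries. WNT3 and WNT5A form most of the ligand sum and FZD2 the largest part of the receptor sum in all 6 groups, and both sums are higher in the 3 knockout-arm groups than in ctrl-OE.

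WNT10B was the only ligand that passed in a comparison of a MEIS group with its control, which it did in MEIS1-OE. It was at 1.29 to 2.12 CPM (median 1.54) in ctrl-OE and at 2.28 to 3.59 (median 2.87) in MEIS1-OE, so that every MEIS1-OE library lay above every control library. The log2 fold change was 0.82 ± 0.17 (adjusted p = 0.00103, edgeR). In MEIS2-OE it was at 1.71 to 2.42 (median 2.03), which overlapped ctrl-OE, and the difference between MEIS1-OE and MEIS2-OE was 0.56 ± 0.17 on the log2 scale (adjusted p = 0.0362), which was lost without any 1 of 8 of the 12 libraries (MEIS1-OE 2, 4 and 5 and MEIS2-OE 1, 3, 4, 5 and 6, adjusted p of up to 0.109). WNT5B differed between the same groups (6.39 to 8.78 CPM, median 7.74, in MEIS1-OE and 4.52 to 6.97, median 5.56, in MEIS2-OE, log2 difference 0.43 ± 0.11, adjusted p = 0.00684), whereas against ctrl-OE its log2 fold changes of 0.26 and -0.17 did not pass. In the comparison of MEIS1-OE with MEIS2-OE 5 members passed, all higher in MEIS1-OE, which is 9.43% of those tested against 7.75% of all genes, and the others are RSPO1, LEF1 and RNF43. WNT3 and WNT5A passed in none of the 4 comparisons with a control. The 95% intervals of their log2 fold changes lay between -0.13 and 0.19 for WNT3 and between -0.19 and 0.23 for WNT5A.

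More ligands differed between the 2 control groups than between any MEIS group and its control. In ctrl-OE against ctrl-KO 35 members passed, 14 higher and 21 lower in ctrl-OE, which is 66.0% of those tested against 51.4% of all genes. With the fold requirement it was 21 of the 53 tested members (11 higher, 10 lower), and 4354 of all 19689 genes (22.1%). The median log2 fold change was -0.11 for the tested members and 0.049 for all genes. Of 17 ligands tested 12 passed, 7 higher and 5 lower. WNT8B, a ligand of the dorsomedial forebrain, was at 0.234 to 0.447 CPM (median 0.35) in ctrl-OE and at 1.47 to 2.32 (median 1.79) in ctrl-KO, a log2 difference of -2.38 ± 0.20 (adjusted p = 3.85e-13). WNT3 was at 36.4 to 46.9 (median 41.5) and 52.3 to 61.5 (median 56.4), without overlap (-0.44 ± 0.052, adjusted p = 4.76e-09). WNT7B and WNT7A, ligands of forebrain progenitors, were lower in ctrl-OE as well, at 2 to 9 against 9 to 21 counts per library (-1.71 ± 0.34, adjusted p = 4.24e-05) and 0 to 4 against 1 to 14 counts (-2.10 ± 0.45, adjusted p = 0.000156).

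Several ligands were read in the activation arm and hardly or not at all in the knockout arm. WNT11, a non-canonical ligand, had 126 counts over the 6 ctrl-OE libraries (0.702 to 1.37 CPM, median 0.856) and 3 over the 6 ctrl-KO libraries, a CPM ratio of 34.9 with a 95% counting interval of 11.7 to 172 (adjusted p = 1.01e-11 in edgeR). WNT6, WNT8A and WNT1 had 16, 20 and 11 counts in ctrl-OE and 0 in ctrl-KO. In CPM this is 4.44, 5.55 and 3.05 times a floor of 3 counts over the ctrl-KO group (adjusted p = 0.00168, 7.46e-05 and 0.00516, edgeR). The interval covers counting error only. The floor covers that of the 0 counts and not that of the higher group, so these ratios are not lower limits. WNT6 was at 0 counts in the 18 libraries of the knockout arm. WNT10B was also higher in ctrl-OE (log2 difference 1.08 ± 0.22, adjusted p = 7.59e-05; 0.235 to 1.07 CPM, median 0.828, in ctrl-KO), as was WNT5B (0.69 ± 0.11, adjusted p = 2.66e-06; 5.94 to 7.78, median 6.31, against 3.24 to 4.59, median 4.13). Without library 6 of ctrl-OE the WNT5B difference was 0.64. Some of these genes are neighbours in the genome (GRCh37): WNT3 and WNT9B lie 46 bases apart on chromosome 17 and point away from each other, WNT1 and WNT10B lie 6.59 kb apart on chromosome 12 and WNT10A and WNT6 6.62 kb apart on chromosome 2. WNT1 and WNT10B were both higher in ctrl-OE, whereas WNT3 was lower and WNT9B did not pass. Both tested roof plate and cortical hem markers were also higher in ctrl-OE, MSX1 by 1.55 ± 0.23 on the log2 scale (adjusted p = 3.39e-07) and GDF7 by 1.83 ± 0.55 (adjusted p = 0.00556), and their part in the ligand differences was not tested.

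FZD2 was the main Frizzled message, with 43.2% ± 2.7 of the summed receptor CPM per kilobase in ctrl-OE and 40.2% ± 2.5 in ctrl-KO (30.6 and 37.7 CPM per kilobase). FZD3, which acts in axon guidance and planar polarity, and FZD7, a receptor of stem cells, followed with 16.5% ± 1.9 and 14.8% ± 0.6 in ctrl-OE, then FZD1, FZD10, FZD6, FZD5 and FZD4. FZD8 and FZD9 stayed below 1 CPM. Of the co-receptors LRP6 was at 14.3 CPM per kilobase in ctrl-OE and 12.3 in ctrl-KO and LRP5 at 6.56 and 5.80, and neither passed in a comparison of a MEIS group with its control.

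In MEIS2-KO 3 of the 10 Frizzled receptors passed, all lower, where 10.0% of all genes passed. FZD1 was at 77.2 to 91.2 CPM (median 86.7) in ctrl-KO and at 61.6 to 75.2 (median 66.2) in MEIS2-KO (log2 fold change -0.33 ± 0.081, adjusted p = 0.00734). FZD3 was at 213 to 238 (median 223) and 166 to 201 (median 180), a change of -0.30 ± 0.062 (adjusted p = 0.00122). FZD7 was at 62.9 to 72.2 (median 64.8) and 49.5 to 59.5 (median 53.5), a change of -0.29 ± 0.065 (adjusted p = 0.00344). The 2 groups did not overlap for 7 of the 53 tested members, these 3 receptors among them. The share of all genes without overlap was not counted. The changes of the 3 receptors were -20.3%, -19.0% and -18.0%. FZD2, the most abundant receptor per kilobase of exon, did not pass there (0.10 ± 0.10), and its share of the receptor sum per kilobase was 46.1% ± 1.8 in MEIS2-KO. In MEIS1-KO the values of FZD1, FZD3 and FZD7 were also below control in the median (68.9, 204 and 59.6 CPM) but did not pass. No member passed in MEIS1-KO against MEIS2-KO (0.0152% of all genes did, edgeR), 3 had an unadjusted p under 0.05 in that test, and DESeq2 gave 0 adjusted and 3 unadjusted as well.

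In MEIS1-OE FZD2 rose and FZD4, a receptor of the retinal vasculature and of the ligand Norrin, fell. FZD2 was at 99.4 to 160 CPM (median 107) in ctrl-OE and at 111 to 159 (median 153) in MEIS1-OE, a log2 fold change of 0.33 ± 0.10 (adjusted p = 0.0372, edgeR). Library 6 of ctrl-OE, at 160 CPM, stood above all the other libraries of both groups, which overlap with or without it, and without that library the change was 0.45 (adjusted p = 0.00192). It was lost when any 1 of 5 other control libraries or any of MEIS1-OE libraries 1, 2, 4, 5 and 6 was left out (adjusted p of up to 0.108). FZD4 was at 9.71 to 11.3 (median 10.2) in ctrl-OE and at 7.49 to 9.34 (median 8.56) in MEIS1-OE, without overlap (-0.29 ± 0.095, adjusted p = 0.0460), and was likewise lost without any 1 of 8 of the 12 libraries (ctrl-OE 1 to 4 and MEIS1-OE 2, 4, 5 and 6, adjusted p of up to 0.121).

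Of the 10 Frizzled receptors 8 passed between the controls, where 51.4% of all genes did, 6 lower and 2 higher in ctrl-OE. FZD1 was lower in ctrl-OE (37.5 to 62.9 CPM, median 41.2, log2 difference -0.93 ± 0.083, adjusted p = 2.36e-12, and -1.06 without library 6 of ctrl-OE), and FZD3 (-0.51 ± 0.062, adjusted p = 6.88e-09), FZD7 (-0.46 ± 0.065, adjusted p = 1.39e-07) and FZD10 (-0.43 ± 0.11, adjusted p = 0.000729) were lower too. Without library 6 of ctrl-OE the FZD7 and FZD10 differences were -0.54 and -0.56. FZD4 (0.64 ± 0.099, adjusted p = 7.53e-07) and FZD5 (0.33 ± 0.099, adjusted p = 0.00455) were higher. LRP6 was higher by 0.22 ± 0.061 (adjusted p = 0.00220). The effect of MEIS1 activation minus that of MEIS1 knockout was 0.41 ± 0.12 for FZD1 (adjusted p = 0.0355), and the corresponding MEIS2 contrast was 0.44 ± 0.12 (adjusted p = 0.0291), and these were lost when any 1 of 15 and of 13 of the 24 libraries was left out (adjusted p of up to 0.0916 and 0.0870). Without library 6 of ctrl-OE, the one far above its group for FZD1, they were 0.54 (adjusted p = 0.000161) and 0.56 (adjusted p = 0.000170). In these contrasts 3 members (MEIS1, 5.66% of those tested against 3.48% of all genes) and 4 members (MEIS2, 7.55% against 2.57%) passed. The MEIS1 contrast holds FZD1, LEF1 and TCF7L2, and the MEIS2 contrast holds FZD1, LGR4, RNF43 and NKD1.

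Among the secreted inhibitors DKK2, which binds LRP6, was higher in every MEIS group, whether the gene was activated or knocked out. It was at 4.32 to 6.52 CPM (median 5.85) in ctrl-OE, at 5.89 to 13.7 (median 7.87) in MEIS1-OE and at 6.87 to 11.3 (median 8.72) in MEIS2-OE. In the knockout arm it was at 5.01 to 6.86 (median 5.88) in ctrl-KO, at 8.49 to 13.6 (median 9.81) in MEIS1-KO and at 9.10 to 13.0 (median 10.8) in MEIS2-KO. Only the lowest MEIS1-OE library overlapped its controls. The log2 fold changes were 0.63 ± 0.15 in MEIS1-OE (adjusted p = 0.00431), 0.67 ± 0.15 in MEIS2-OE (adjusted p = 0.0109), 0.78 ± 0.15 in MEIS1-KO (adjusted p = 0.00316) and 0.87 ± 0.15 in MEIS2-KO (adjusted p = 0.000243). Between the controls the DKK2 difference did not pass (95% interval -0.41 to 0.22), and the call in MEIS2-OE was lost without MEIS2-OE library 6 (adjusted p = 0.0666). With a replicate number left out of every group, the call was lost in MEIS1-OE without number 6 (0.42, adjusted p = 0.0558) and in MEIS2-OE without number 4 or 5 (adjusted p = 0.0964 and 0.109), and in neither knockout. DKK2 lies on chromosome 4 in the same orientation as LEF1 and 764 kb from it (GRCh37).

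The inhibitors SFRP2 and SFRP1, which bind WNT ligands outside the cell, were the most abundant of their class, with 24.7 and 21.3 CPM per kilobase in ctrl-OE and 59.2 and 43.3 in ctrl-KO. SFRP2 fell in both activations, from 35.5 to 77.1 CPM (median 45.7) in ctrl-OE to 27.9 to 39.3 (median 34.8) in MEIS1-OE and 29.8 to 41.4 (median 34.3) in MEIS2-OE. The log2 fold changes were -0.53 ± 0.12 (adjusted p = 0.00158) and -0.52 ± 0.12 (adjusted p = 0.00868). The highest control value was that of library 6, and without it the changes were -0.36 (adjusted p = 0.0103) and -0.35 (adjusted p = 0.0556). The SFRP2 call in MEIS2-OE was also lost without replicate number 4 or 6 in every group (adjusted p = 0.069 and 0.0561). It was lost as well when only the groups compared were fitted (adjusted p = 0.128). SFRP1 was at 191 to 212 CPM (median 207) in ctrl-KO and at 167 to 180 (median 173) in MEIS2-KO, a drop without overlap (-0.24 ± 0.046, adjusted p = 0.000726). It also fell in MEIS1-OE, from 93.8 to 115 (median 97.3) to 82.8 to 101 (median 90.1), by 0.16 ± 0.047 on the log2 scale (adjusted p = 0.0241), and that call was lost without ctrl-OE library 4 or 6 (-0.12 without library 6, adjusted p = 0.0752) or MEIS1-OE library 2 or 4 (adjusted p of up to 0.0861). DKK1 and DKK3 passed in none of the 4 comparisons, and DKK4, SFRP4, SFRP5 and WIF1 stayed below 1 CPM.

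Between the controls SFRP1 and SFRP2 were lower in ctrl-OE, and neither gene's groups overlapped. The log2 difference was -1.02 ± 0.047 for SFRP1 (adjusted p = 1.82e-20, the smallest of the members) and -1.26 ± 0.11 for SFRP2 (adjusted p = 4.32e-12), with ctrl-KO at 101 to 130 CPM (median 119) for SFRP2. The neural stem cell markers moved with these differences: 7 of 8 passed, all lower in ctrl-OE. Of all 19689 genes 51.4% passed in this comparison, 4701 of them lower. The summed level of the marker list, which is mostly VIM and NES, was 2900 to 3761 CPM in ctrl-OE and 4297 to 4818 in ctrl-KO. The sum of 4 mesenchymal genes was at 193 to 332 against 527 to 696. That sum is mostly COL3A1 (-1.69 ± 0.089), whereas COL1A1 was higher in ctrl-OE (0.61 ± 0.21, adjusted p = 0.0158). In such bulk samples fewer cells of a type and less RNA per cell cannot be told apart, the vector system and the group cannot be told apart, and the part of these markers in the ligand, receptor and inhibitor differences was not tested.

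RSPO1, a secreted amplifier of WNT signals, showed the largest log2 fold change among the members that passed against a control in a MEIS group. It had 0 to 3 counts in each ctrl-OE library (0 to 0.140 CPM, median 0.107), 24 to 47 counts in each MEIS1-OE library (1.21 to 2.13 CPM, median 1.57), and 3 counts in all in MEIS2-OE, which came from a single library. All 18 libraries of the knockout arm had 0 counts, which allows a level of up to 0.00876 CPM over the arm. The fitted log2 fold change in MEIS1-OE was 3.95 ± 0.35 (adjusted p = 1.33e-08, edgeR). On the pooled counts (198 against 13) the ratio was 16.4, with a 95% counting interval of 9.36 to 31.3. Against MEIS2-OE the pooled ratio was 65.2 with an interval of 21.99 to 319, and the test of that difference gave an adjusted p of 1.94e-09. Its fitted log2 difference was between 3.76 and 7.99 under the alternatives, the highest without the only MEIS2-OE library that had counts. The gene stayed low in absolute terms, at 0.510 CPM per kilobase in MEIS1-OE, where LGR4, the receptor for R-spondins, was at 7.37. Between the controls RSPO1 was higher in ctrl-OE, with 13 counts against 0 (adjusted p = 0.00413, edgeR). In CPM this is 3.61 times a floor of 3 counts over the ctrl-KO group, which is not a lower limit. RSPO2, RSPO3 and RSPO4 were below 1 CPM in all groups, as was LGR5, and none of these 4 passed in a comparison of a MEIS group with its control.

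LGR4 fell in both knockouts. It was at 91.5 to 104 CPM (median 100.3) in ctrl-KO, at 64.4 to 87.2 (median 80.1) in MEIS1-KO and at 64.1 to 74.5 (median 69.3) in MEIS2-KO, and neither knockout group overlapped the control. The log2 fold changes were -0.35 ± 0.095 (adjusted p = 0.0459) and -0.51 ± 0.095 (adjusted p = 0.000470). The first was lost when any 1 of 8 of its 12 libraries was left out (all ctrl-KO libraries but 4, and MEIS1-KO 3, 4 and 6, adjusted p of up to 0.177), and the second under no alternative. In the activations LGR4 did not pass (ctrl-OE 42.7 to 57.5, median 48.0, MEIS1-OE 37.2 to 62.0, MEIS2-OE 45.9 to 65.5). Activation and knockout of MEIS2 differed in their effect on it by 0.62 ± 0.14 (adjusted p = 0.00589). Between the controls LGR4 was lower in ctrl-OE (-1.003 ± 0.096, adjusted p = 2.04e-11), and LGR5, at 6 to 17 against 14 to 22 counts per library, was lower as well (-0.90 ± 0.27, adjusted p = 0.00441).

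RNF43, the ligase that removes Frizzled and is itself a target gene of beta-catenin, rose in MEIS2-KO from 2.36 to 4.08 CPM (median 2.79) to 4.09 to 5.95 (median 5.35), with the groups just short of touching. The log2 fold change was 0.80 ± 0.13 (adjusted p = 0.000105, the smallest of the members in that comparison). In MEIS2-OE it was at 1.90 to 3.58 (median 2.91) against 3.23 to 4.18 (median 3.61) in ctrl-OE, a log2 fold change of -0.35 ± 0.13 that did not pass, and the difference between the effects of MEIS2 activation and knockout was -1.16 ± 0.19 (adjusted p = 0.000132). RNF43 was also higher in MEIS1-OE than in MEIS2-OE (0.46 ± 0.13, adjusted p = 0.0222), a call that was lost without MEIS1-OE library 4 or 5 or MEIS2-OE library 1 (adjusted p of up to 0.0922). ZNRF3, its relative, was at 7.48 CPM per kilobase in ctrl-OE, where RNF43 was at 0.578, and passed in none of the 4 comparisons. It was lower in ctrl-OE than in ctrl-KO (-0.27 ± 0.060, adjusted p = 0.000217).

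**Figure D3:**
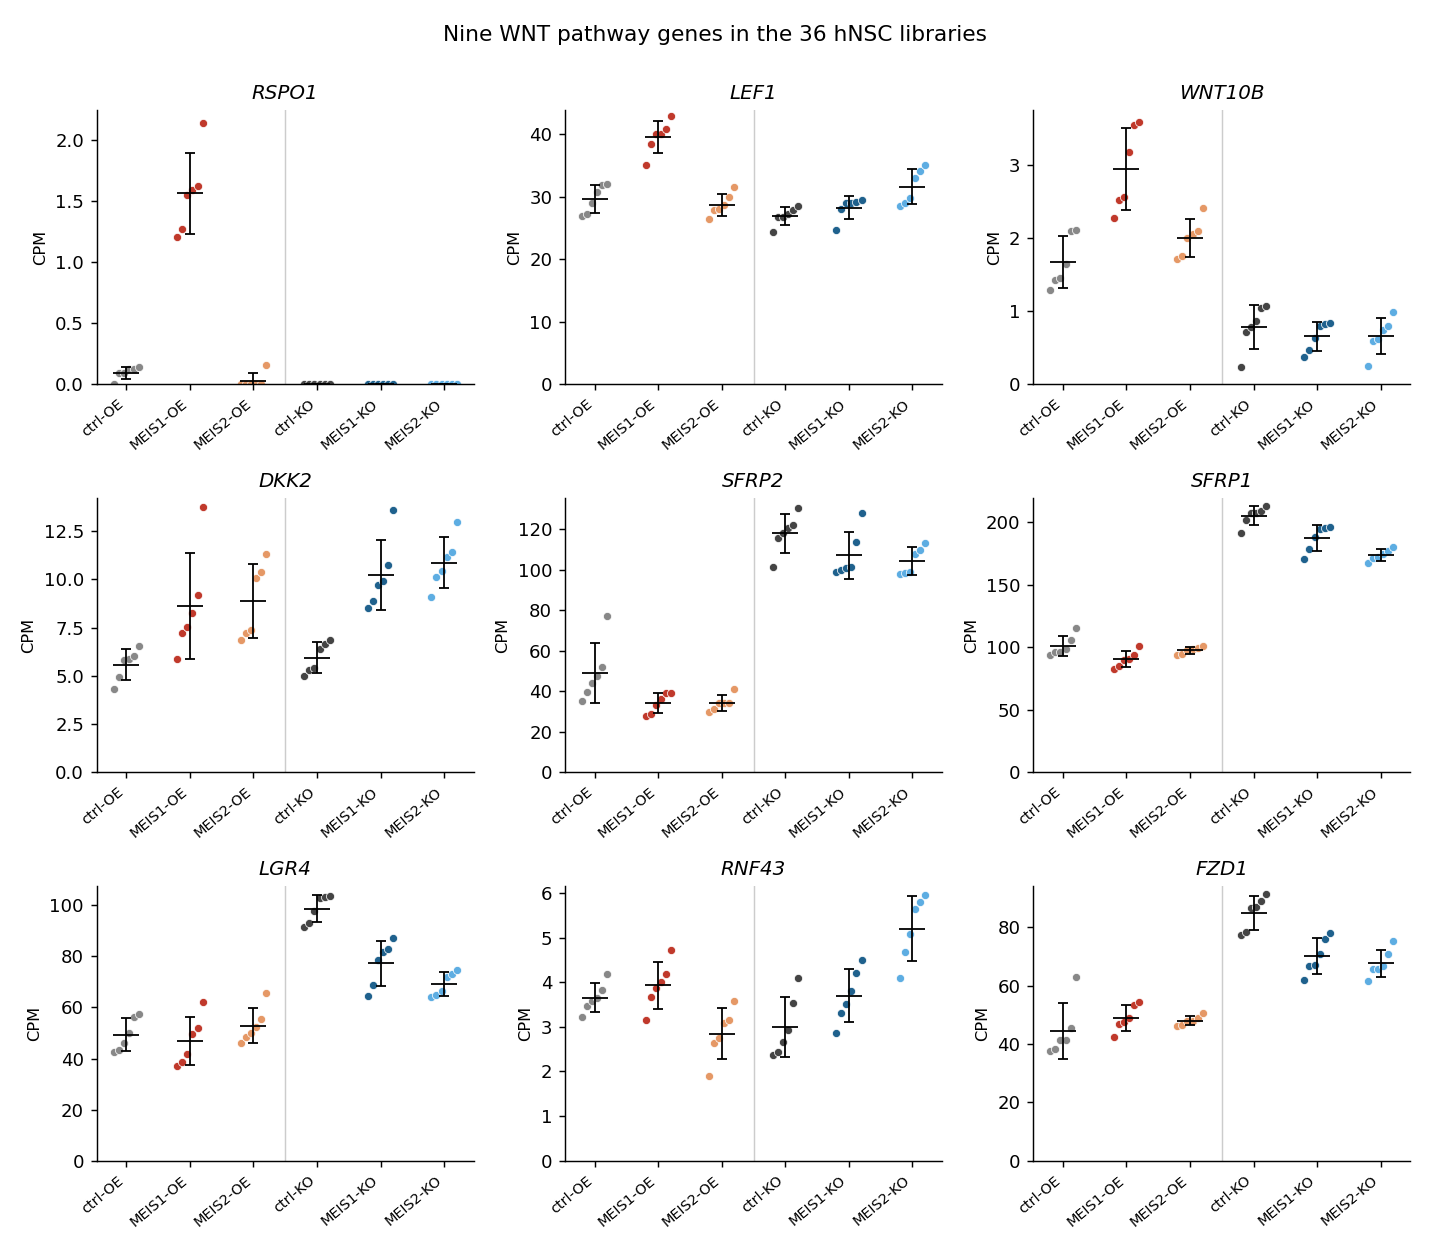
CPM after TMM scaling (y axis, from 0) of 9 members in each of the 36 libraries, by group (x axis). Points are libraries in ascending order, and lines with bars are the mean ± SD of 6 libraries. RSPO1 stands apart in MEIS1-OE alone, DKK2 is higher in all 4 MEIS groups than in its control, and SFRP1, SFRP2, LGR4 and FZD1 are higher in the knockout arm at right.

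CTNNB1, which codes for beta-catenin, was the most abundant member, with 58.8 CPM per kilobase in ctrl-OE and 62.7 in ctrl-KO, and it passed in none of the 4 comparisons. Its 95% intervals there lay between -0.054 and 0.15 on the log2 scale. AXIN1, AXIN2, NKD1 and NKD2 did not pass in them either. AXIN2, a feedback inhibitor and the most widely used readout of canonical signalling, was at 41.9 to 56.5 CPM (median 50.0) in ctrl-OE and at 49.0 to 74.6 (median 56.5) in MEIS1-OE, a log2 fold change of 0.27 with a 95% interval of 0.061 to 0.48 (adjusted p = 0.118). In the other 3 comparisons the interval lay between -0.27 and 0.18. NKD1, a feedback inhibitor that acts on Dishevelled, was at 56.6 to 72.7 (median 68.9) in ctrl-OE and 38.4 to 46.7 (median 45.0) in ctrl-KO, a log2 difference of 0.63 ± 0.076 (adjusted p = 5.91e-09). Activation and knockout of MEIS2 differed in their effect on NKD1 by -0.41 ± 0.11 (adjusted p = 0.0265), with neither effect passing alone, and the difference was lost without any of 6 libraries (ctrl-OE 5, MEIS2-OE 1, ctrl-KO 1 and 2, MEIS2-KO 4 and 5, adjusted p of up to 0.0592).

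LEF1, the TCF/LEF member that acts mainly as an activator and is a target gene of the pathway, rose in MEIS1-OE. It was at 26.9 to 32.1 CPM (median 29.9) in ctrl-OE, at 35.2 to 43.0 (median 40.1) in MEIS1-OE and at 26.5 to 31.5 (median 28.3) in MEIS2-OE. Every MEIS1-OE library lay above every library of the other activation groups, and the log2 fold change of 0.42 ± 0.060 (33.5%, adjusted p = 2.36e-06) passed under every alternative. Against MEIS2-OE the difference was 0.46 ± 0.060 (adjusted p = 3.26e-07). LEF1 was also higher in MEIS2-KO, at 28.5 to 35.0 (median 31.4) against 24.3 to 28.6 (median 27.0) in ctrl-KO (0.23 ± 0.061, adjusted p = 0.0122), where 5 of 6 libraries lay above all controls, and that call was lost when replicate number 1, 5 or 6 was left out of every group (adjusted p of up to 0.0685). In MEIS1-KO it was at 24.6 to 29.5 (median 29.0) and did not pass, and the effect of MEIS1 activation exceeded that of knockout by 0.35 ± 0.086 (adjusted p = 0.0123), which was lost without replicate number 2, 4 or 5 (adjusted p of up to 0.0978). The antisense transcript LEF1-AS1 was at 0.263 to 0.325 CPM in the mean of each group and passed in no comparison.

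TCF7L1, which acts as a repressor in stem cells, and TCF7L2 were the most abundant TCF/LEF genes, at 11.9 and 9.38 CPM per kilobase in ctrl-OE and both at 13.7 in ctrl-KO. LEF1 was at 5.53 and 5.02 and TCF7 at 1.62 and 1.54. In MEIS1-OE the share of LEF1 in the TCF/LEF sum per kilobase was 23.03% ± 2.38, against 19.54% ± 2.12 in ctrl-OE. TCF7, TCF7L1 and TCF7L2 passed in none of the 4 comparisons. Activation and knockout of MEIS1 differed in their effect on TCF7L2 by 0.24 ± 0.069 (adjusted p = 0.0414), a call lost without any 1 of 15 of the 24 libraries (adjusted p of up to 0.0911). Between the controls TCF7L2 was lower in ctrl-OE, at 59.2 to 67.9 CPM (median 63.6) against 85.5 to 97.7 (median 92.5), a log2 difference of -0.55 ± 0.049 (adjusted p = 3.76e-12).

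**Figure D4:**
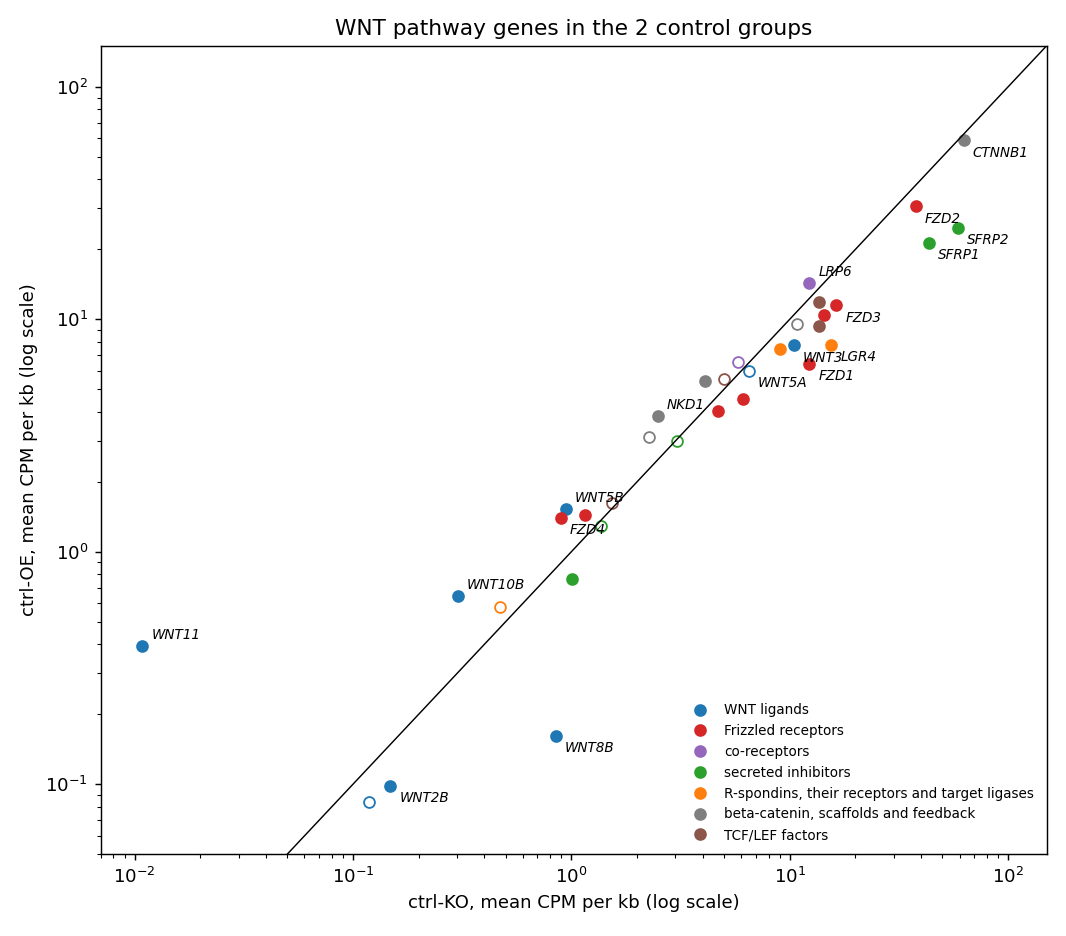
Mean CPM per kilobase of exon in ctrl-KO (x axis, log scale) and ctrl-OE (y axis, log scale) of 35 of the 36 members that reached 1 CPM in a group, coloured by role, with the line of equal levels. Filled points have an adjusted p under 0.05 in edgeR, and RSPO1 is left out because it had 0 counts in ctrl-KO. SFRP1, SFRP2, FZD1, LGR4 and WNT8B lie below the line and WNT11, WNT10B, WNT5B, FZD4 and NKD1 above it.

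Another 10 members passed between the controls with larger p-values than those given above. Lower in ctrl-OE were WNT2B (0.748 to 1.86 CPM, median 1.10, against 1.41 to 2.25, median 1.84), FZD2, FZD6, DKK1, TCF7L1, RSPO3 and CTNNB1. Higher in ctrl-OE were AXIN1 (35.1 to 55.8 CPM, median 39.5, against 25.3 to 34.6, median 31.7), RSPO4 and WNT16. AXIN1 was the only one of these 10 whose groups did not overlap. RSPO4 had 7 counts against 0 and WNT16 had 5 against 0, which in CPM is 1.94 and 1.39 times the floor of 3 counts. These ratios are not lower limits, since the higher counts carry counting error of their own. The low ligands WNT6 and WNT8A did not pass in the activations: WNT6 had 0 to 2 counts per library in MEIS1-OE and 0 to 10 in MEIS2-OE, and WNT8A had 0 to 2 in each.

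The remaining genes of the pathway, 51 in 6 lists (the destruction complex with Dishevelled, ligand secretion, partners of TCF factors, planar polarity, further modulators and common target genes), were all tested. In MEIS1-OE 4 of 51 passed, 3 higher and 1 lower, which is 7.84% against 9.10% of all genes. These are VANGL1, a core planar polarity protein (log2 fold change 0.41 ± 0.062, adjusted p = 6.26e-06), BCL9L, a co-activator that binds beta-catenin (0.75 ± 0.13, adjusted p = 8.91e-05), DVL3, a Dishevelled protein that relays the signal of Frizzled (0.20 ± 0.045, adjusted p = 0.00220), and KREMEN2, a co-receptor for DKK proteins (-0.72 ± 0.16, adjusted p = 0.00241). In MEIS2-OE only WLS, the carrier that brings WNT proteins to the cell surface, passed (-0.19 ± 0.049, adjusted p = 0.0353), 1.961% against 1.35% of all genes. In MEIS1-KO it was only GPC4, a glypican that binds WNT ligands (0.27 ± 0.072, adjusted p = 0.0489), 1.961% against 1.46%. In MEIS2-KO 6 passed, 3 higher and 3 lower, which is 11.8% against 10.0%: the co-repressor TLE4 (-0.30 ± 0.058, adjusted p = 0.000704), the polarity protein VANGL2 (-0.16 ± 0.035, adjusted p = 0.00320), ID2 (-0.77 ± 0.18, adjusted p = 0.00556) and, upwards, PRICKLE2 (0.37 ± 0.090), the secreted inhibitor DRAXIN (0.45 ± 0.11) and MYC (0.51 ± 0.15).

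Of the 8 common WNT target genes none passed in MEIS1-OE, MEIS2-OE or MEIS1-KO, and in MEIS2-KO ID2 was lower and MYC higher. Their median log2 fold change was -0.16, -0.18, 0.090 and -0.025 in the 4 comparisons. For those at 1 CPM or more in a group it was -0.14, -0.16, 0.11 and 0.17, so the sign in MEIS2-KO depended on low genes. The target genes LEF1, AXIN2 and RNF43 are members, given above, and are not among the 8. Between the controls 29 of the 51 genes passed, 8 higher and 21 lower in ctrl-OE, which is 56.9% against 51.4% of all genes. The gene with the smallest p in each of the 6 lists was TLE4 (-1.16 ± 0.059, adjusted p = 4.38e-19), WLS (-0.87 ± 0.049, adjusted p = 8.95e-18), VANGL2 (-0.51 ± 0.035, adjusted p = 3.27e-15), KREMEN2 (2.49 ± 0.20, adjusted p = 1.71e-13), TNFRSF19 (1.24 ± 0.10, adjusted p = 1.94e-13) and GSK3A (0.24 ± 0.048, adjusted p = 5.15e-05). In MEIS2-KO 5 of the 8 neural stem cell markers also passed, where 10.0% of all genes did, 4 lower and 1 higher (PAX6 -0.52, VIM 0.33). The roof plate marker MSX1 rose there (0.96 ± 0.25, adjusted p = 0.0100), the neuronal gene DCX fell (-0.997 ± 0.32, adjusted p = 0.0383), the endothelial gene CDH5 rose (0.36 ± 0.094, adjusted p = 0.0113), and the mesenchymal gene COL1A1 rose (1.06 ± 0.22, adjusted p = 0.00114), in the mean from 36.3 to 75.9 CPM. DCX had only 10 to 31 counts per library in ctrl-KO and 4 to 14 in MEIS2-KO. It was the only 1 of 5 tested neuronal genes that passed. The median log2 fold change of the neuronal genes at 1 CPM or more was 0.29, in the other direction. In the activations HES5 fell in MEIS1-OE (-2.96 ± 0.68, adjusted p = 0.00236) and MEIS2-OE (-2.79 ± 0.66, adjusted p = 0.0153) and SOX1 in MEIS1-OE (-0.31 ± 0.096, adjusted p = 0.0342), and the part of these genes in the member changes was not tested. In ctrl-OE HES5 had 1 to 35 counts per library and SOX1 641 to 1080. Library 6 of ctrl-OE was the highest for both genes, and these calls were not examined without it. COL1A1 also rose in MEIS1-KO (0.82 ± 0.22, adjusted p = 0.0408), where PAX6 fell by 0.42 and VIM rose by 0.25. The other genes of the mesenchymal list overlapped ctrl-KO in counts per library in both knockouts. COL3A1 had 8833 to 13215 counts in ctrl-KO, 9244 to 14576 in MEIS1-KO and 7864 to 13309 in MEIS2-KO. In the same order LUM had 114 to 139, 103 to 153 and 73 to 133, and DCN 1 to 7, 1 to 7 and 2 to 8. The summed mesenchymal list was at 604 to 856 CPM in MEIS1-KO and 580 to 758 in MEIS2-KO, against 527 to 696 in ctrl-KO. The part of these markers in the changes of the members was not tested.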

How the data were processed

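Poly-A RNA of hNSC was sequenced in paired-end mode (TruSeq stranded kit, 2 × 100 bases) in 36 libraries. The authors aligned reads to hg19 with STAR (2.4.2a in the design text, 2.7.0a in the submitters' processing notes, which also name Trimmomatic 0.39) and counted them per gene with HTSeq 0.6.0. The deposited values are raw counts. The annotation and the strand setting of the counting are not given in the sources used here, so reads of overlapping antisense genes may be included. Groups follow the treatment labels; nothing in the labels says whether the 6 libraries of a group are separate cultures, so p-values measure the spread between these libraries.

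From the counts, 19689 of 28516 genes with at least 10 counts in sum were tested in edgeR 4.0.16 (R 4.3.3, limma 3.58.1) with TMM scaling, 1 fit of 6 groups without a block, quasi-likelihood F tests and Benjamini-Hochberg adjustment. Standard errors were obtained as the absolute log2 fold change over the root of F. CPM per kilobase used the merged exon length of each gene in GENCODE v44 mapped to GRCh37, which need not be the annotation of the authors. The script was tested on simulated data. Alternatives were RLE scaling, other filters, a prior count of 2, the replicate block, only the groups compared, DESeq2 1.42.0 and leaving out each replicate number; leaving out each single library was added after seeing the data.

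The members, the pathway lists and the marker lists were chosen with earlier results of these data known. Members were named with full statistics where they passed, at most 25 per comparison in order of p, every member at 1 CPM or more in a group was named, and a gene of another list was named where it passed with the smallest p of its list; MYC and PRICKLE2, chosen after their values were seen, complete a count of 6. Sequences are from RefSeq (GRCh38.p14) and, for the guides, from the study's designed guide list, with sites read on GRCh37.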

Additional observations from a re-analysis of the deposited data

Results flagged for a closer look

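In 5 members the effect of MEIS1 activation differed from that of MEIS2 activation by the direct test of the 2 groups, which share ctrl-OE. The log2 difference (MEIS1-OE minus MEIS2-OE) was 5.70 for RSPO1 (3.76 to 7.99 under the alternatives, with 3 counts in a single MEIS2-OE library behind it), 0.46 for LEF1, 0.43 for WNT5B, 0.46 for RNF43 and 0.56 for WNT10B, and all 5 were higher in MEIS1-OE.

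A library stood far from the other 5 of its group in 11 of 135 sets of 6 libraries looked at (23 members), by Dixon's test at its 95% critical value. Chance flags about 1 in 20 such sets. Library 6 of ctrl-OE was the highest for 4 Frizzled or ligand genes, at 62.9 CPM for FZD1 (next 45.6), 160.3 for FZD2 (next 116), 61.3 for FZD7 (next 48.4) and 7.78 for WNT5B (next 6.44), and it was the lowest for RSPO1, at 0. MEIS1-OE library 3 was high for FZD3 (183 CPM, next 151), MEIS2-KO library 3 for FZD5 (10.3, next 8.23), MEIS2-OE library 4 for RSPO1 (0.161, all others 0) and MEIS1-KO library 6 for WNT11 (0.0513, all others 0). MEIS2-OE library 4 was low for FZD7 (37.6 CPM, next 42.3) and MEIS1-KO library 4 for LEF1 (24.6, next 28.0).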

How the results depend on the processing

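Single-gene values were compared under the alternatives for members that passed, at most 25 per comparison, and for MEIS1 and MEIS2. None of these log2 fold changes turned its direction. The other named values were not compared in this way: those of other pathway genes, of markers, and of members that did not pass or ranked lower. Of 61 results for single genes (MEIS1 and MEIS2 included), 43 stayed past the threshold under each alternative run: the 25 named between the controls, RSPO1, LEF1, WNT10B and SFRP2 in MEIS1-OE, DKK2 in MEIS1-KO, RNF43, DKK2, LGR4, SFRP1, FZD3 and FZD7 in MEIS2-KO, RNF43 in the MEIS2 contrast, RSPO1 and LEF1 in MEIS1-OE against MEIS2-OE, and the targeted genes. Of 1605 values under alternatives 163 fell below the threshold.

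The following counts of members passing include each that moved by over 1.5 times. Fitting only the groups compared gave 1 in MEIS2-OE, 1 in the MEIS1 contrast and 7 in the MEIS2 contrast. Over all genes that fit gave 212, 561 and 835, where the main fit gave 266, 686 and 506. RLE scaling gave 1 in MEIS1-KO (LGR4 had an adjusted p of 0.0521), and over all genes 284 where the main fit gave 287. The filterByExpr filter and DESeq2 each gave 5 in the MEIS1 contrast, and DESeq2 gave 7 in the MEIS2 contrast. Over all genes they gave 743 (filterByExpr, of 15194 tested) and 845 (DESeq2) in the first, and DESeq2 gave 655 in the second. With the replicate number as a block the counts were 10, 3, 3 and 10 in MEIS1-OE, MEIS2-OE, MEIS1-KO and MEIS2-KO, 38 between the controls, 7 in the MEIS2 contrast and 9 in MEIS1-OE against MEIS2-OE. Over all genes the block gave 2044, 306, 458 and 2386 in the MEIS groups, where the main fit gave 1791, 266, 287 and 1974. Between the controls, in the MEIS2 contrast and in MEIS1-OE against MEIS2-OE it gave 10408, 719 and 1741. The main fit gave 10120, 506 and 1526 there. The replicate numbers were not treated as pairs because the labels do not tie them to a shared source and only 16 of 90 same-numbered pairs had a correlation of deviations above 0.1. They were not without structure: 16 of 36 libraries had their highest mean correlation, among the 6 numbers in the other groups, with their own number, where no structure would give about 1 in 6, and the mean correlation was 0.0361 for the same number (0.127 for number 6) against -0.00732 for other numbers. Without 1 replicate number in every group the counts were 5 to 7 in MEIS1-OE, 0 to 2 in MEIS2-OE, 1 to 2 in MEIS1-KO, 7 to 9 in MEIS2-KO, 29 to 33 between the controls, 0 to 3 and 1 to 4 in the MEIS1 and MEIS2 contrasts and 2 to 8 in MEIS1-OE against MEIS2-OE. Without a single library, an alternative chosen after seeing the data, they were 5 to 9 (5 without ctrl-OE 4 or MEIS1-OE 2 or 4), 1 to 3 (1 without ctrl-OE 6 or MEIS2-OE 6), 1 to 3 (1 without ctrl-KO 1, 2, 3, 5 or 6 or MEIS1-KO 3, 4 or 6), 8 to 9, 32 to 35, 1 to 4 (1 without ctrl-OE 1 or 4, ctrl-KO 5 or MEIS1-KO 4), 2 to 7 (2 without ctrl-OE 5, MEIS2-OE 1 or MEIS2-KO 4, 7 without MEIS2-KO 3) and 3 to 9 (9 without MEIS1-OE 3, 3 without MEIS1-OE 4 or 5) in the same order. Among calls not said above to be lost, leaving out a replicate number ended FZD1 in MEIS2-KO (number 4, adjusted p = 0.0528), LGR4 in the MEIS2 contrast (numbers 1 and 5, 0.0532 and 0.0501) and WNT5B in MEIS1-OE against MEIS2-OE (number 4, 0.121). The 21 members below 1 CPM in all groups rest on few counts per library, which limits the precision of their fold changes.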
